A study of Mus musculus with 12 samples.

Results

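Circadian clock genes were followed in the livers of ARE-Del mice and their wild-type (WT) littermates. The 10 genes were listed by name: Arntl (BMAL1), Clock, Npas2, Per1, Per2, Per3, Cry1, Cry2, Nr1d1 (REV-ERB-alpha) and Dbp. Of these, 9 had a row of their own among the 19852 genes of the deposited table. Npas2 was listed only in an entry merged with Rpl31, a ribosomal protein gene, so no value is given to it. Of the 9, 7 reached 0.5 RPKM (reads scaled to transcript length and to library size) in at least 3 libraries and were tested among 10568 genes. Per2 and Per3 stayed below that level.

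Liver RNA of C57BL/6 mice aged 20 weeks was sequenced in 12 libraries, 3 in each of 4 groups: female ARE-Del, female WT, male ARE-Del and male WT. The ARE-Del allele lacks the AU-rich element of the interferon-gamma gene Ifng, which normally speeds the decay of that transcript. The series describes these animals as expressing IFN-gamma chronically. The allele lies in the animals' germline, so no Cre or cell type limits it, and the extraction protocol writes ARE-Del-/- mice for all 12 libraries. The labels give no time of day at which livers were taken and do not say that each library is a separate animal, so p-values measure only the spread between libraries.

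The mammalian clock is a transcription loop that runs in nearly every liver cell with a period of about a day. BMAL1 pairs with CLOCK, or with its relative NPAS2, and activates genes through E-boxes, among them the Per, Cry, Nr1d1 and Dbp genes. PER and CRY proteins return to the nucleus and repress that pair, REV-ERB-alpha represses Arntl through ROR elements, and DBP carries the rhythm to output genes through D-boxes. In mouse liver, transcripts of Arntl and of Dbp, Per3 and Nr1d1 peak at opposite parts of the day.

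Summed RPKM ran from 173476 to 208647 per library and separated the genotypes in each sex. It was 201338 to 208647 in female ARE-Del and 174636 to 190533 in female WT livers. In males it was 189579 to 195444 in ARE-Del and 173476 to 184252 in WT livers. Depth, estimated from the spacing of low values, ran from 0.904 to 1.46 times that of female WT library 1. All 8 hepatocyte markers were found. Ifng was higher in each of the 6 ARE-Del libraries, at 0.0742 to 0.238 RPKM, than in any of the 6 WT libraries, at 0 to 0.0382 RPKM. One library lacked an RNA of its labelled sex. Female ARE-Del 2 had 0.0456 RPKM of Xist, the X-inactivation RNA, where the other 5 female libraries had 33.0 to 45.6 RPKM. Like them, it had no Ddx3y, a Y-linked gene found in all 6 male libraries. Its Cutl2 was 2.05 RPKM, where the male libraries had 0 to 0.0246 RPKM. Calls of clock genes that rest on this library, and those of genes named from the pathway lists, are also given without it. Markers of other liver cells differed between the groups. Summed leukocyte markers were 46.3 to 52.9 RPKM in female ARE-Del and 6.84 to 11.4 RPKM in female WT livers, and 18.5 to 25.1 RPKM in male ARE-Del and 5.21 to 7.34 RPKM in male WT livers, with none of the 4 at 0 throughout. All 4 leukocyte and all 8 Kupffer cell markers rose in ARE-Del livers of both sexes (limma adjusted p below 0.05). Their part in the results was not tested, and in whole tissue a change in the number of cells of a type and a change in RNA per cell cannot be told apart.

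The clock loop acts through short promoter motifs, and the windows of 4 genes are shown because at least 1 such motif was found in them. Each runs from 250 bases before to 50 bases after a RefSeq transcript start (GRCm38.p6, on the strand of the gene), a different build from the mm9 of the alignments. Capitals mark the E-box CACGTG, the D-box TTATGNAA or the ROR element TAGGTCA or TGGGTCA, each searched on both strands.
Arntl, chr7:113207261-113207560, plus strand, ROR element at position +31 from the start: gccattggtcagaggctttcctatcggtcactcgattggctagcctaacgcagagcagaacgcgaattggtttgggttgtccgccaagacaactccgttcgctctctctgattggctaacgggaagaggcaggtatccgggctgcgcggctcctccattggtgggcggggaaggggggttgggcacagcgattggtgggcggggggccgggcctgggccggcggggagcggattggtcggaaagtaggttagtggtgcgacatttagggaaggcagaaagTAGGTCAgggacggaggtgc
Cry1, chr10:85185005-85185304, minus strand, E-box at position -60: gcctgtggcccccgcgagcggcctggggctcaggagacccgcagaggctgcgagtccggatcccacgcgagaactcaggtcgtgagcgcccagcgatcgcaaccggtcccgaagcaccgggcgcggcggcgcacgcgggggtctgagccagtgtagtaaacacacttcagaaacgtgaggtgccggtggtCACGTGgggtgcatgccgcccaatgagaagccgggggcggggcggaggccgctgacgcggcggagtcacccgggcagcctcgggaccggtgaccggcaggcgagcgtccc
Per1, chr11:69098699-69098998, plus strand, E-box at position -166 and D-box at position -24: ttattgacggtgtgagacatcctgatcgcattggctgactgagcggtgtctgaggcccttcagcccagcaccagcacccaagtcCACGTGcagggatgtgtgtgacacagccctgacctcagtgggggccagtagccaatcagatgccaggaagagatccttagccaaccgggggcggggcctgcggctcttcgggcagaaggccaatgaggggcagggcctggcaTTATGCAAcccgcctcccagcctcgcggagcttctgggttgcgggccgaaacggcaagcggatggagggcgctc
Per3, chr4:151044616-151044915, minus strand, D-boxes at positions -205 and -158: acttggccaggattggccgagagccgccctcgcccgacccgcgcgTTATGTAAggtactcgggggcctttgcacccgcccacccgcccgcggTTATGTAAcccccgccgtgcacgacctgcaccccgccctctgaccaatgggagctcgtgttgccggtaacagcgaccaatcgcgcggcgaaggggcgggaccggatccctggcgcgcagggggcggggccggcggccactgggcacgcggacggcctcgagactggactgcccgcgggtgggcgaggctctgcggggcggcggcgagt
No 2 of these motifs overlap. Windows were found for 9 of the 10 genes, all but Per2. The E-box was present in the windows of 2 of the 9 genes, against 8.09% of 27025 genes, the D-box in 2 of the 9, against 3.99%, and the ROR element in 1 of the 9, against 7.35%. The windows of Clock, Npas2, Cry2, Nr1d1 and Dbp held none of the 3 in these letters. Arntl and Per1 each had a further window, at another transcript start, that is not shown and held none of the 3. A match describes a sequence and is no measured site.

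Ranked by mean RPKM, which is scaled to transcript length, over the 12 libraries, Nr1d1 stood first at 9.68, followed by Arntl at 3.87, Clock at 2.79, Cry1 at 2.05 and Cry2 at 1.61 RPKM. Dbp averaged 0.926, Per1 0.824, Per2 0.397 and Per3 0.112 RPKM. Nr1d1, Arntl and Clock were each above the next gene in all 12 libraries, and Per2 was above Per3 in all 12. The middle of the order was not separated in this way: Cry1 was above Cry2 in 8 libraries, Cry2 above Dbp in 9, Dbp above Per1 in 6 and Per1 above Per2 in 8.

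**Figure D1:**
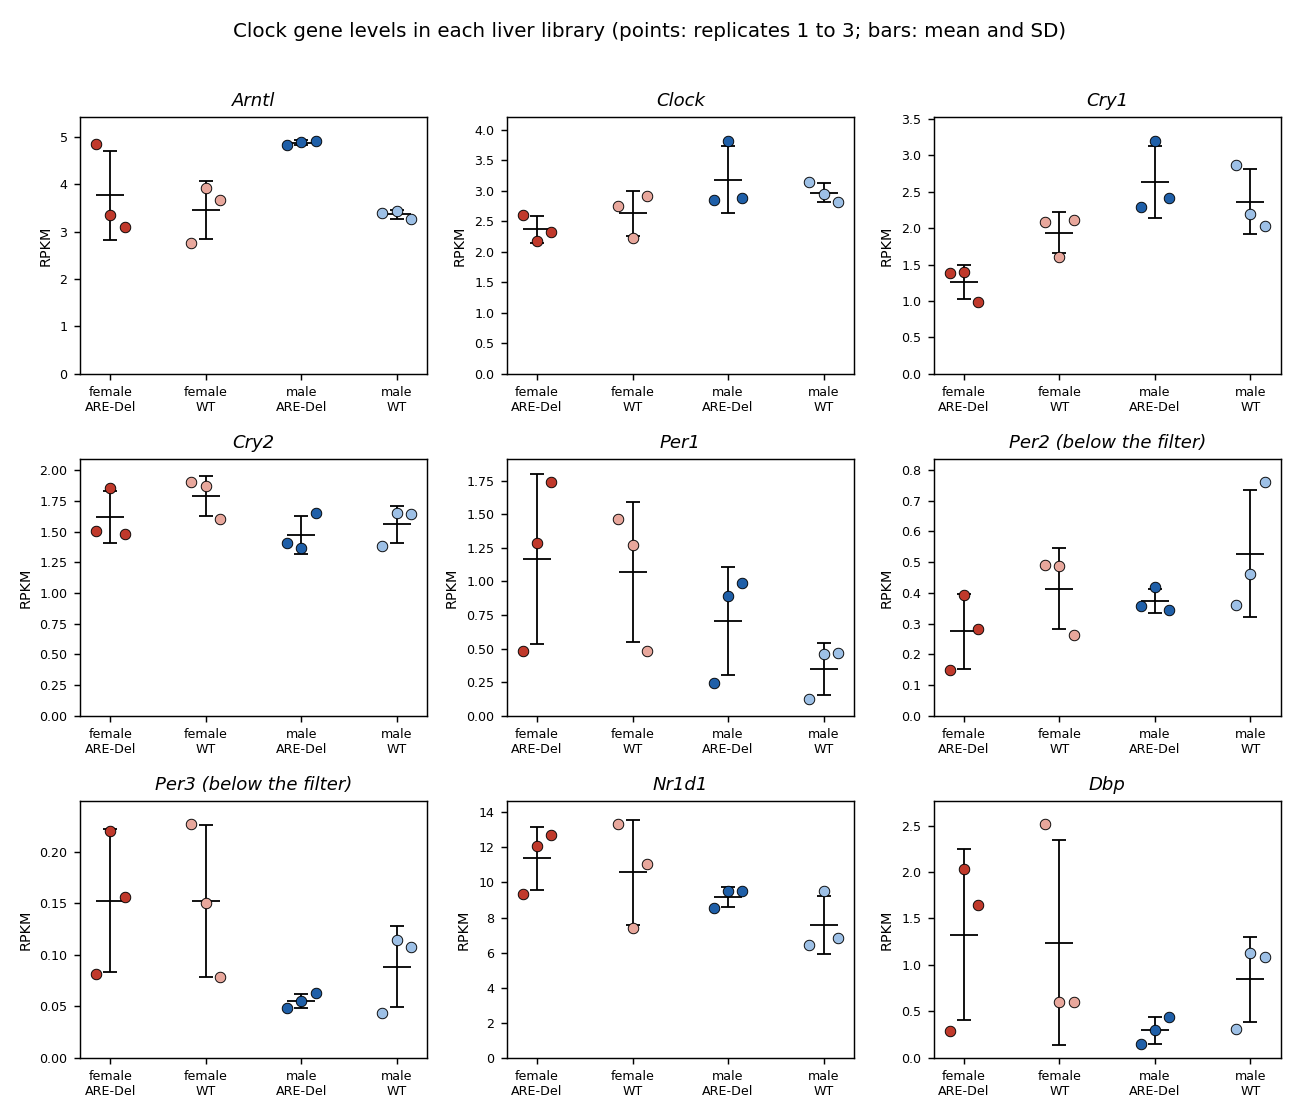
RPKM (linear axes from 0) of the 9 clock genes with a row of their own, by group, with ARE-Del left of WT in each sex. Points are replicates 1 to 3, bars the mean and SD. Arntl in males and Cry1 in females separate ARE-Del from WT, while Dbp spans 0.284 to 2.04 RPKM within the female ARE-Del group alone.

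Of the activators, Arntl was the clock gene that rose in males. It had 4.83, 4.91 and 4.93 RPKM in male ARE-Del livers, against 3.40, 3.44 and 3.27 RPKM in male WT livers. The groups did not overlap, and each was narrow, with a mean of 4.89 ± 0.0543 RPKM in the mutants and 3.37 ± 0.0903 RPKM in WT (SD, n = 3 each), a ratio of 1.45. The log2 change of RPKM + 1 was 0.43 ± 0.12 (SE; limma adjusted p = 0.0278), against a median of 0.0979 over all genes tested in males. In females Arntl had 4.85, 3.36 and 3.10 RPKM in ARE-Del livers and 2.77, 3.93 and 3.68 RPKM in WT livers. Those groups overlapped, with female ARE-Del 1 the highest and female WT 1 the lowest of the 6, and the log2 change was 0.09 with a 95% interval of -0.18 to 0.36 (limma adjusted p = 0.624). Averaged over the sexes the change was 0.26 ± 0.09 (SE; limma adjusted p = 0.0313), and 0.29 (limma adjusted p = 0.0286) without the library that lacks Xist. The averaged call held in 8 of 19 alternatives, and its value fell to 0.13 under median-of-ratios scaling (limma adjusted p = 0.285) and to 0.11 after quantile normalization (limma adjusted p = 0.36). The male call did not hold when any of the 6 male libraries was left out (limma adjusted p = 0.0543 to 0.0791, log2 change 0.41 to 0.44). It was also lost under median-of-ratios scaling (0.30, limma adjusted p = 0.138) and quantile normalization (0.30, limma adjusted p = 0.154).

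Clock, the partner of BMAL1, did not pass the test between genotypes in either sex. It had 2.60, 2.18 and 2.32 RPKM in female ARE-Del livers and 2.75, 2.22 and 2.92 RPKM in female WT livers. Male livers held 2.84, 3.82 and 2.88 RPKM in ARE-Del livers and 3.14, 2.95 and 2.82 RPKM in WT livers. Both pairs overlapped, and male ARE-Del 2 was the highest of all 12 libraries. The log2 change was -0.10 in females (95% interval -0.32 to 0.11; limma adjusted p = 0.455) and 0.07 in males (-0.15 to 0.28; limma adjusted p = 0.666).

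Of the repressors, Cry1 was the clock gene that fell in females. It had 1.39, 1.40 and 0.989 RPKM in female ARE-Del livers, against 2.09, 1.61 and 2.11 RPKM in female WT livers. The groups did not overlap, with means of 1.26 ± 0.233 RPKM in female ARE-Del and 1.94 ± 0.283 RPKM in female WT livers (SD, n = 3 each), a ratio of 0.65. The log2 change was -0.38 ± 0.12 (SE; limma adjusted p = 0.0321), against a median of 0.0892 over all genes tested in females. In males Cry1 had 2.28, 3.20 and 2.42 RPKM in ARE-Del livers and 2.87, 2.20 and 2.03 RPKM in WT livers, with overlap and a log2 change of 0.11 (95% interval -0.15 to 0.38; limma adjusted p = 0.554). The female call held without the library that lacks Xist (-0.43, limma adjusted p = 0.0382). It was lost without female ARE-Del 3 (-0.29, limma adjusted p = 0.135), female WT 1 (-0.34, 0.0943) or female WT 3 (-0.34, 0.0968), and without the filter on low values (limma adjusted p = 0.0704).

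Cry2, the second cryptochrome, had the smallest spread of the 7 tested genes on the log2 scale. Its 12 values ran from 1.36 to 1.90 RPKM, with 1.51, 1.86 and 1.49 RPKM in female ARE-Del and 1.90, 1.87 and 1.60 RPKM in female WT livers. Males had 1.41, 1.36 and 1.65 RPKM in ARE-Del and 1.39, 1.65 and 1.64 RPKM in WT livers. Groups overlapped in each sex, and the log2 changes were -0.09 in females (95% interval -0.26 to 0.07) and -0.05 in males (-0.22 to 0.12), with limma adjusted p of 0.383 and 0.694. Averaged over both sexes the change of Cry2 was -0.07 as deposited (limma adjusted p = 0.312). That average was called as a fall under median-of-ratios scaling (-0.17, limma adjusted p = 0.0396) and quantile normalization (-0.23, limma adjusted p = 0.00973).

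Among the Period genes, Per1, which also responds directly to hormones and stress, had 0.485, 1.28 and 1.74 RPKM in female ARE-Del and 1.46, 1.27 and 0.481 RPKM in female WT livers. Male values were 0.246, 0.890 and 0.985 RPKM in ARE-Del and 0.125, 0.459 and 0.465 RPKM in WT livers. Each group held libraries that differed by 3.04 to 4.0 times, and ARE-Del and WT overlapped in both sexes. The ratio of male means was 2.02, yet the interval of the log2 change was wide, at 0.32 (-0.22 to 0.86; limma adjusted p = 0.391), and in females the change was 0.05 (-0.49 to 0.60; limma adjusted p = 0.89).

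Per2, the Period gene with the strongest known role in the loop, had 0.150, 0.393 and 0.282 RPKM in female ARE-Del and 0.492, 0.487 and 0.262 RPKM in female WT livers. Its male values were 0.358, 0.418 and 0.344 RPKM in ARE-Del and 0.362, 0.462 and 0.759 RPKM in WT livers. The groups overlapped in both sexes, and the genotype difference over both sexes was -0.15 on the log2 scale of RPKM + 1 (exact permutation test within sex, two-sided p = 0.08; the smallest p these 400 arrangements allow is 0.005). Without the library that lacks Xist it was -0.18 (exact permutation p = 0.065). Per3, the weakest of the Period genes in the loop, had 0.0815, 0.220 and 0.156 RPKM in female ARE-Del and 0.227, 0.151 and 0.0789 RPKM in female WT livers. Per3 in males was at 0.0488, 0.0549 and 0.0626 RPKM in ARE-Del and 0.0435, 0.115 and 0.108 RPKM in WT livers. The genotype groups overlapped in both sexes, with a difference of -0.02 over both (exact permutation test within sex, two-sided p = 0.655).

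Nr1d1, the repressor of Arntl, had 9.36, 12.1 and 12.7 RPKM in female ARE-Del and 13.3, 7.39 and 11.1 RPKM in female WT livers. Male livers had 8.52, 9.49 and 9.51 RPKM in ARE-Del and 6.43, 9.49 and 6.85 RPKM in WT livers. The groups overlapped in each sex. The log2 changes of 0.12 in females (95% interval -0.28 to 0.52; limma adjusted p = 0.665) and 0.26 in males (-0.14 to 0.66; limma adjusted p = 0.342) did not pass. Nr1d1 overlaps Thra and Dbp overlaps Sphk2 on the opposite strand in the GENCODE annotation of mm10, and whether strand was used in counting is not given in the sources used here. Neither partner passed the test in any of the 6 comparisons.

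Dbp, the output factor that acts on D-boxes, had the largest spread of the 7 tested genes. It had 0.284, 2.04 and 1.65 RPKM in female ARE-Del and 2.51, 0.601 and 0.603 RPKM in female WT livers. Dbp in males was at 0.152, 0.302 and 0.440 RPKM in ARE-Del and 0.311, 1.13 and 1.09 RPKM in WT livers. The highest library exceeded the lowest of its own group 7.17 times in female ARE-Del livers, 4.18 times in female WT livers, 2.90 times in male ARE-Del livers and 3.64 times in male WT livers. Groups overlapped, narrowly in males, where male ARE-Del 3 lay above male WT 1. The ratio of male means was 0.353, with a log2 change of -0.48 (95% interval -1.23 to 0.27; limma adjusted p = 0.351), and in females the change was 0.07 (-0.68 to 0.82; limma adjusted p = 0.904).

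Counted together, 1 of the 7 tested clock genes changed in females, against 31.3% of all genes tested, and 1 of 7 in males, against 21.5%. Averaged over both sexes it was again 1 of 7, against 42.5%. These shares are no higher than the background. The median log2 change of the 7 was 0.05 in females and 0.11 in males, beside 0.0892 and 0.0979 for all tested genes. The background itself depended on scaling: under median-of-ratios scaling the median of all genes moved to -0.0114 in females and -0.0098 in males, and the share of calls that were rises from 82.3% to 52.3% in females and from 90.5% to 55.7% in males. Relative to the median of all genes as deposited, Cry1 in females was -0.47 and Arntl in males 0.33.

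**Figure D2:**
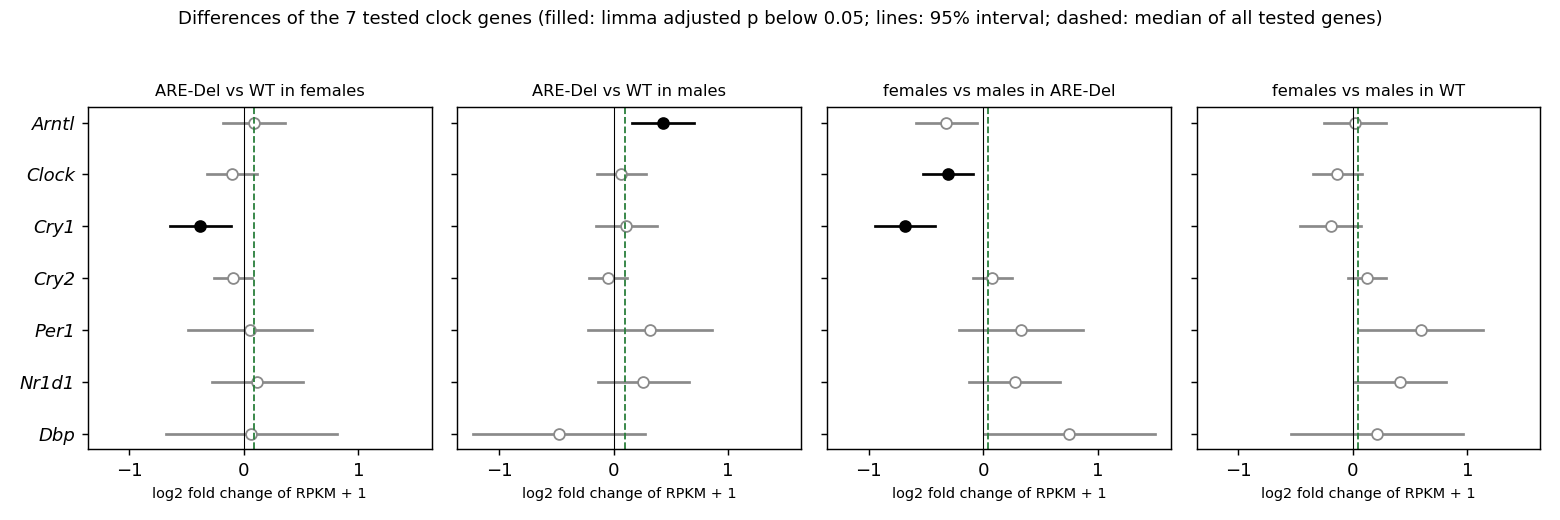
Log2 fold changes of RPKM + 1 (x axes) of the 7 tested clock genes for ARE-Del over WT in each sex and females over males in each genotype. Points are limma estimates, lines their 95% intervals, filled points have adjusted p below 0.05, and the dashed line is the median of all tested genes. Filled points are Cry1 in females, Arntl in males, and Cry1 and Clock between the sexes of ARE-Del mice.

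No clock gene passed the test of whether the ARE-Del change differed between the sexes (limma interaction term), where 0.568% of all genes did (60 genes, and 1231 at an unadjusted p under 0.05). Cry1 came closest, with a difference between its female and male changes of -0.49 ± 0.17 (SE; limma unadjusted p = 0.0146, adjusted p = 0.26). For Arntl that difference was -0.34 ± 0.18 (SE; limma adjusted p = 0.504). So neither the fall of Cry1 in females nor the rise of Arntl in males was shown to differ from the change in the other sex.

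Between the sexes, Cry1 and Clock were lower in female than in male ARE-Del livers, 2 of 7 clock genes against 22.4% of all genes, a share near the background. Cry1 averaged 1.26 ± 0.233 RPKM in female ARE-Del and 2.63 ± 0.498 RPKM in male ARE-Del livers (SD, n = 3 each), a ratio of 0.478, and all 3 females were below all 3 males. The log2 difference was -0.68 ± 0.12 (SE; limma adjusted p = 0.00191). This call held in all 19 alternatives tried, with differences of -1.01 to -0.57 and limma adjusted p of 0.0014 to 0.0108, and at -0.73 (limma adjusted p = 0.00397) without the library that lacks Xist. Clock averaged 2.37 ± 0.215 RPKM in female ARE-Del and 3.18 ± 0.554 RPKM in male ARE-Del livers (SD, n = 3 each), again without overlap, and differed by -0.31 ± 0.10 (SE; limma adjusted p = 0.0431). The Clock call was lost without the library that lacks Xist (-0.27, limma adjusted p = 0.117), without female ARE-Del 3 (-0.30, 0.114) and without male ARE-Del 2 (-0.20, 0.169). It was also lost, at an unchanged -0.31, without female WT 1 or any 1 of the male WT libraries (limma adjusted p = 0.0524 to 0.0568), with the replicate block (0.0714) and without the filter on low values (0.0809), so that it held in 10 of 19 alternatives. Summed leukocyte markers also differed between these groups, with no overlap, as given above, and their part was not tested.

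Leaving out female ARE-Del 1, the library with the highest Arntl and lowest Dbp of its group, added 2 calls between the sexes of ARE-Del mice. Arntl then differed by -0.48 (limma adjusted p = 0.00785) and Dbp by 1.13 (limma adjusted p = 0.0277), beside -0.32 (0.0849) and 0.75 (0.141) with all libraries. Each of these calls came in only 1 of 19 alternatives. Both genes in that library lay within the range of male ARE-Del livers, so leaving it out had to widen both differences. No sex difference is concluded from these 2 calls.

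In WT livers no clock gene differed between females and males by the limma test, where 9.76% of all genes did. At an unadjusted p under 0.05 there were 2 of 7 clock genes and 2685 of all genes. Per1 averaged 1.07 ± 0.521 RPKM in female WT and 0.350 ± 0.195 RPKM in male WT livers (SD, n = 3 each), without overlap, a log2 difference of 0.60 ± 0.25 (SE; limma unadjusted p = 0.034, adjusted p = 0.158). Nr1d1 averaged 10.6 ± 2.99 RPKM in female WT and 7.59 ± 1.66 RPKM in male WT livers (SD, n = 3 each), with overlap, and differed by 0.41 ± 0.18 (SE; limma adjusted p = 0.18). Per3, tested outside the model, was higher in females over both genotypes by 0.10 on the log2 scale (exact permutation test within genotype, two-sided p = 0.04, and 0.045 without the library that lacks Xist). This p is for 1 gene and is not adjusted over genes. All 3 female ARE-Del livers were above all 3 male ARE-Del livers for Per3, for which 3 against 3 cannot go below an exact p of 0.1. The 3 Per3 values of female WT livers overlapped those of male WT livers.

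The spread between libraries of the same group was itself large for the rhythmic members. Around its own group means, Dbp had an SD of 0.514 on the log2 scale, larger than that of 99.3% of the tested genes. The SD was 0.369 for Per1 (larger than 97.9%), 0.264 for Nr1d1 (94.9%), 0.172 for Arntl (85.9%), 0.17 for Cry1 (85.4%) and 0.131 for Clock (73.0%). Cry2, at 0.0946, lay below the median gene, at 0.0988. Other regulators of the loop lay as high, with SDs of 0.418 for Bhlhb2 (DEC1, a repressor of E-box genes), 0.345 for Nfil3 (a repressor at D-boxes), 0.340 for Tef (a relative of DBP) and 0.284 for Nr1d2 (REV-ERB-beta). Hlf, the third factor of the DBP family, had 0.107.

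These deviations ran in the same sense for several genes. In female ARE-Del 1, Dbp lay 0.76 below, Tef 0.41 below and Nfil3 0.66 above their group means on the log2 scale, and Arntl was the highest of its group while Per1, Per2, Per3 and Nr1d1 were the lowest of theirs. Female WT 1 was the reverse, with Dbp 0.76 and Tef 0.42 above and Nfil3 0.25 below the group mean, Arntl lowest, and Per1, Per2, Per3 and Nr1d1 highest. Male ARE-Del 1 had the lowest Dbp, Tef, Per1, Per3 and Nr1d1 of its group, and also the lowest Arntl. Male WT 1 had the lowest Dbp, Tef, Per1, Per2, Per3 and Nr1d1 of its group and the highest Nfil3. Arntl itself stayed close to its group means in all 6 male libraries, between -0.03 and 0.02 on the log2 scale, so the opposite running of Arntl and Dbp was seen in the female libraries. Relative depth was 1.46 in female ARE-Del 1 and 1 in female WT 1, and 1.17 in male ARE-Del 1 and 1.36 in male WT 1. The parts of depth and of leukocyte content in these deviations were not tested, nor was that of the time of collection, which the labels do not give.

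**Figure D3:**
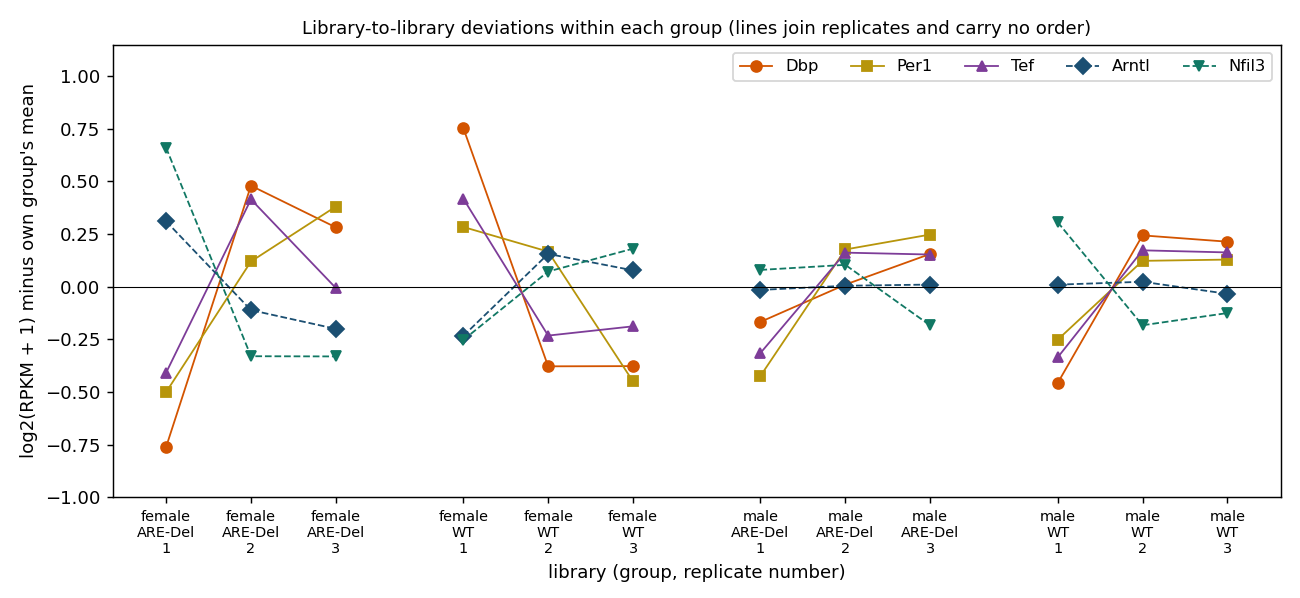
Deviation of log2(RPKM + 1) from the mean of the library's own group (y axis) for Dbp, Per1, Tef, Arntl and Nfil3 in each of the 12 libraries (x axis). Lines only join the libraries of a group, whose numbers carry no order. Dbp runs from 0.76 below to 0.76 above its group means, and in the female groups Arntl and Nfil3 lie on the other side of 0 from Dbp in each library.

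Over the 12 libraries' deviations, 36 pairs of clock genes were correlated, and none passed Benjamini-Hochberg adjustment over the 36 pairs in an exact permutation test within groups (1296 arrangements, two-sided, smallest possible p 0.000772). The strongest was Per3 with Dbp, at Pearson r = 0.917 (exact permutation p = 0.00154, adjusted p = 0.0556) and Spearman rho = 0.881 (exact permutation p = 0.00849, adjusted p = 0.167). Without the 2 libraries farthest on Per3, female ARE-Del 1 and female WT 3, r was 0.900, and without the library that lacks Xist it was 0.909. Arntl ran against Dbp, at r = -0.868 (exact permutation p = 0.0733, adjusted p = 0.22) and rho = -0.79 (exact permutation p = 0.0733, adjusted p = 0.327), with r = -0.702 without female ARE-Del 1 and female WT 1. The deviations of Arntl are near 0 in males, so its correlations rest mainly on the 6 female libraries. Clock and Cry1 had r = 0.778 (exact permutation p = 0.0147, adjusted p = 0.176) and rho = 0.692 (exact permutation p = 0.0347, adjusted p = 0.319), with r = 0.644 without female WT 2 and male ARE-Del 2. Arntl and Clock, whose products work as a pair, had r = 0.102 (exact permutation p = 0.798, adjusted p = 0.821) and rho = 0.126 (exact permutation p = 0.789, adjusted p = 0.836), with r = -0.0169 without female ARE-Del 1 and female WT 1.

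**Figure D4:**
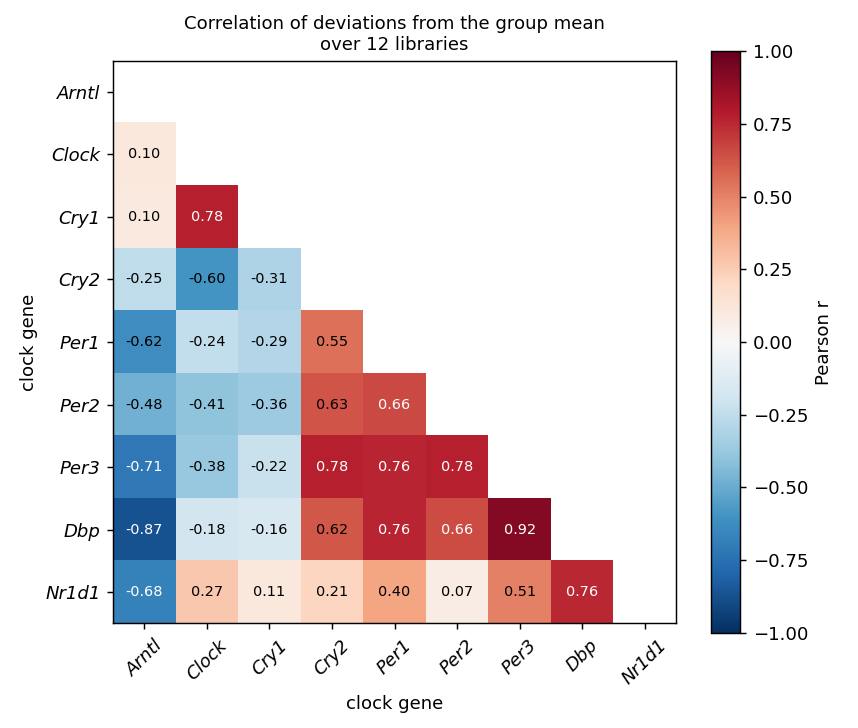
Pearson r (colour and number) between the deviations of each pair of clock genes from their group means over 12 libraries. Dbp and the 3 Period genes are positive with one another and negative with Arntl, while Clock and Cry1 form a separate positive pair; no pair passed adjustment over the 36.

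The tested genes most like Arntl in these deviations were Cutl2 (r = 0.974), Irs2 (0.906), Zfp512 (0.875), Pja1 (0.864) and Arl6 (0.845). Those that ran most against it were Lrp3 (-0.958), Tlr7 (-0.92), Tmem16f (-0.912), Plscr4 (-0.894) and Rapgef1 (-0.89). For Dbp the highest were Kcnk6 (0.94), Tenc1 (0.927), Tef (0.926), Rapgef1 (0.915) and Prkcb1 (0.908), and the lowest Cradd (-0.962), Pja1 (-0.918), Nfil3 (-0.913), Zfp512 (-0.886) and Actr6 (-0.877). Each r is over 12 libraries and was picked from 10568 genes, so it is a description, and those with Arntl rest mainly on the 6 female libraries. Cutl2 passed the filter through the female groups alone, with 1.45 to 3.08 RPKM in females and 0 to 0.0246 RPKM in males. Tef and Nfil3 belong to the clock's output arm. Rapgef1, Pja1 and Zfp512 stand at opposite ends for Arntl and Dbp, which themselves ran opposite (r = -0.868), so this is no separate observation.

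Beyond the 10 genes, 7 of 12 listed regulators of the secondary loop and output arm were tested, and 1 fell in female ARE-Del livers, where 31.3% of all genes were called, and none was called in males, where 21.5% of all genes were. The 1 was Hlf, which binds D-boxes as DBP does. It had 2.10, 2.71 and 2.55 RPKM in female ARE-Del livers, against 3.66, 3.01 and 3.52 RPKM in female WT livers, a log2 change of -0.35 ± 0.09 (SE; limma adjusted p = 0.00762). Male values of Hlf were 2.39, 2.27 and 2.59 RPKM in ARE-Del livers, against 2.72, 3.12 and 3.25 RPKM in WT livers, a change of -0.24 ± 0.09 (SE; limma adjusted p = 0.0665). In neither sex did the groups overlap, and the male value passed under median-of-ratios scaling (-0.36, limma adjusted p = 0.00944). Without the library that lacks Xist, the female change of Hlf was -0.40 (limma adjusted p = 0.00681). Nfil3, Nr1d2, Bhlhb2 and Tef did not pass in either sex. The list's median log2 change was -0.13 in females and -0.02 in males, beside 0.0892 and 0.0979 for all genes.

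Of 30 kinases, ligases and cofactors that act on clock proteins, 28 were tested. In females 5 rose and 1 fell, against 31.3% of all genes called, and in males 1 rose, against 21.5%, so both shares were below the background. The list medians were 0.07 in each sex and turned negative (-0.05 in females and -0.04 in males) under median-of-ratios scaling. Csnk1d, the casein kinase that phosphorylates PER proteins, rose in both, with 3.47, 3.61 and 3.97 RPKM in female ARE-Del and 3.22, 2.56 and 2.89 RPKM in female WT livers. In males it had 3.57, 3.30 and 3.40 RPKM in ARE-Del and 2.63, 2.87 and 2.49 RPKM in WT livers. The log2 changes of Csnk1d were 0.27 ± 0.07 in each sex (SE; limma adjusted p = 0.0145 in females and 0.0209 in males), and both calls were lost under median-of-ratios scaling. Btrc, a ligase subunit for PER proteins, rose in females by 0.22 ± 0.06 (SE; limma adjusted p = 0.0106), as did the chromatin cofactors Mll1 by 0.24 and Ep300 by 0.19 and the kinase Csnk1e by 0.16. Fbxl21, a ligase subunit for CRY proteins, fell in females (-0.24, limma adjusted p = 0.0234). Without the library that lacks Xist, the calls of Fbxl21 (-0.20, limma adjusted p = 0.0793), Ep300 (0.21, 0.0549) and Csnk1e (0.18, 0.0697) were lost, while those of Csnk1d (0.28, 0.0286), Btrc (0.27, 0.00348) and Mll1 (0.30, 0.00896) held. This split depended on scaling: under median-of-ratios scaling 1 rose and 3 fell in females, under quantile normalization none rose and 6 fell, and Csnk1e turned to -0.02 under quantile normalization.

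Among 16 tested liver genes known to follow the clock, 2 rose and 2 fell in females, against 31.3% of all genes called, and 5 rose in males, against 21.5%. Cdkn1a, the cell cycle inhibitor p21, rose in both, with 3.29, 3.73 and 4.03 RPKM in female ARE-Del and 0.952, 1.36 and 1.16 RPKM in female WT livers (log2 change 1.12 ± 0.21 SE; limma adjusted p = 0.00168). In males it had 4.16, 9.95 and 4.87 RPKM in ARE-Del and 1.03, 1.46 and 1.00 RPKM in WT livers (1.68 ± 0.21 SE; limma adjusted p = 0.000181). Lpin1, a phosphatidate phosphatase and regulator of fat metabolism, rose in males by 1.71 ± 0.39 (SE; limma adjusted p = 0.00886), with 27.5 RPKM in male ARE-Del 2 beside 6.27 and 7.74 RPKM in the other male ARE-Del libraries and a change of 1.09 (limma adjusted p = 0.00248) without that library. Por, the electron donor of liver cytochromes P450, rose in males by 0.96 ± 0.17 (SE; limma adjusted p = 0.00189). Its female groups did not overlap either, with a change of 0.30 ± 0.17 (SE; limma adjusted p = 0.214). In females Elovl3, a fatty acid elongase, fell (-1.18 ± 0.26 SE; limma adjusted p = 0.00387) and Tspan4, a tetraspanin, rose by 0.63 ± 0.14 (SE; limma adjusted p = 0.004). The fall of Elovl3 was at a low level, with means of 1.00 RPKM in female ARE-Del and 3.66 RPKM in female WT livers. Male means of Elovl3 were 206 RPKM in ARE-Del and 164 RPKM in WT livers, with overlap. Without the library that lacks Xist the female changes were 1.11 for Cdkn1a, -1.15 for Elovl3 and 0.50 for Tspan4 (limma adjusted p = 0.00616, 0.0136 and 0.0164). List medians were -0.08 in females and 0.28 in males, and -0.23 in females and 0.14 in males under median-of-ratios scaling. The split again moved with scaling, to 2 rises and 6 falls in females and 3 rises and 3 falls in males under median-of-ratios scaling.

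Clock genes also answer to glucocorticoids, body temperature and feeding, and of 17 tested genes that follow these signals 2 rose and 1 fell in females, against 31.3% of all genes called, and 7 rose in males, against 21.5%. Rbm3, an RNA-binding protein induced by cold, had 5.0, 6.08 and 6.75 RPKM in female ARE-Del and 3.36, 2.94 and 2.61 RPKM in female WT livers (log2 change 0.80 ± 0.10 SE; limma adjusted p = 7.24e-05). In males Rbm3 rose by 0.38 ± 0.10 (SE; limma adjusted p = 0.0197), a call lost under median-of-ratios scaling (0.25, limma adjusted p = 0.111). Cirbp, the other cold-inducible RNA-binding protein of the list, did not pass, with means of 4.12 RPKM in female ARE-Del and 3.71 RPKM in female WT livers and of 3.99 RPKM in male ARE-Del and 3.87 RPKM in male WT livers. Igfbp1, a binding protein for insulin-like growth factors that rises on fasting, had 78.5, 64.3 and 49.6 RPKM in female ARE-Del and 4.08, 10.9 and 9.47 RPKM in female WT livers (2.90 ± 0.39 SE; limma adjusted p = 0.000116). In males it had 30.8, 29.8 and 74.1 RPKM in ARE-Del and 6.69, 11.1 and 4.77 RPKM in WT livers (2.37 ± 0.39 SE; limma adjusted p = 0.0011). Pck1, the gluconeogenic enzyme, rose in males by 1.44 ± 0.21 (SE; limma adjusted p = 0.000505). Female values of Pck1 were 313, 407 and 329 RPKM in ARE-Del and 183, 264 and 253 RPKM in WT livers. Those groups did not overlap, though the female change did not pass. The 7 rises in males include genes of the list that are not named here. Some other genes of the list did not follow. G6pc had overlapping groups in each sex, with means of 57.3 RPKM in female ARE-Del and 46.4 RPKM in female WT livers. Its male means were 47.7 RPKM in ARE-Del and 43.6 RPKM in WT livers. Fgf21, untested below the filter, averaged 0.107 RPKM in female ARE-Del and 0.292 RPKM in female WT livers. In males Fgf21 averaged 0.0319 RPKM in ARE-Del and 0.373 RPKM in WT livers. The glucocorticoid targets Zbtb16 and Fkbp5 rose in males by 1.45 ± 0.22 and 1.28 ± 0.26 (SE; limma adjusted p = 0.000597 and 0.00398), and in females their changes were 0.57 and 0.38 (limma adjusted p = 0.067 and 0.29). A further glucocorticoid target, Tsc22d3, did not pass in either sex, with overlapping groups and means of 9.40 RPKM in female ARE-Del and 9.54 RPKM in female WT livers and of 10.2 RPKM in male ARE-Del and 6.01 RPKM in male WT livers. Without the library that lacks Xist the female changes were 0.78 for Rbm3 and 2.88 for Igfbp1 (limma adjusted p = 0.000453 and 0.000637). List medians were 0.03 in females and 0.20 in males, and -0.06 in females and 0.07 in males under median-of-ratios scaling.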

How the data were processed

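Liver RNA was measured by RNA sequencing in 12 libraries. Per the labels' protocols, RNA was extracted with Trizol and libraries made with an Illumina TruSeq kit. The table holds RPKM values, which the authors deposited after work with Trimmomatic 0.30, TopHat2 2.0.8, Partek and GenomeStudio 6.6 on mm9, per the submitters' processing notes. Neither the counting method nor its use of strand is given in the sources used here. Read totals are unknown, so no counting intervals are given.

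Log2(RPKM + 1) of genes with at least 0.5 RPKM in at least 3 libraries went into a model of 4 group means in limma 3.58.1 (R 4.3.3), with a variance prior that follows the mean and Benjamini-Hochberg adjustment over all tested genes at 0.05. Changes on this scale understate those of low genes. Errors are SE of log2 changes and SD of RPKM. Low members were compared by exact permutation. The fit was tested on simulated data. Over all tested genes, replicate numbers gave no sign of pairing the libraries, a check that cannot exclude a pairing. The alternatives were pseudocount, filter, scaling, variance prior, replicate block and each library left out. Promoters came from RefSeq, with 9 of 10 genes matched by symbol, and figures from Python 3.11.15 with matplotlib 3.10.9, numpy 2.4.6 and pandas 2.3.3.

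The members and lists were chosen with earlier results of these data known. Named genes are the 10 members, Thra, Ifng, Xist, Ddx3y and Alb, up to 5 per list called in either sex by smallest p, filled up by mean RPKM, and the 5 genes most and least like Arntl and Dbp. Sphk2, Csnk1e, Cirbp, Tsc22d3, G6pc, Fgf21 and the per-library pattern of Tef and Nfil3 were added after their values were seen.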

Additional observations from a re-analysis of the deposited data

How the results depend on the processing

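Of the clock gene calls, only Cry1 between the sexes of ARE-Del mice was kept in all 19 alternatives tried. Cry1 in females was kept in 15 of 19, Arntl in males in 10, Arntl averaged over both sexes in 8 and Clock between the sexes of ARE-Del mice in 10. No called clock gene changed sign, and over these alternatives the log2 change ran from -0.59 to -0.29 for Cry1 in females and from 0.30 to 0.52 for Arntl in males. The number of clock genes called in females was 0 without the filter, 3 after quantile normalization, where Clock (-0.27, limma adjusted p = 0.0225) and Cry2 (-0.27, limma adjusted p = 0.0288) joined Cry1, and 0 to 1 when single libraries were left out. In males it was 0 without the filter, 0 under median-of-ratios scaling, 0 after quantile normalization and 0 to 1 with single libraries left out. Averaged over both sexes it was 2 under median-of-ratios scaling, falls of Cry1 (-0.24, limma adjusted p = 0.0435) and Cry2 (-0.17, limma adjusted p = 0.0396). After quantile normalization it was 3, falls of Clock (-0.18, limma adjusted p = 0.0267), Cry1 (-0.30, limma adjusted p = 0.0149) and Cry2 (-0.23, limma adjusted p = 0.00973). The rise of Arntl was called under neither scaling. The averaged count was 0 without the filter, 0 with the replicate block (Arntl, limma adjusted p = 0.0501) and 0 to 1 with single libraries left out. Between the sexes of ARE-Del mice it was 1 without the filter, 1 with the replicate block (Clock, limma adjusted p = 0.0714) and 1 to 4 with single libraries left out, and in WT mice 0 to 1, where Nr1d1 was called without female WT 2 (0.63, limma adjusted p = 0.03). The cause was not tested. Of all genes, the interaction gave 14 calls at a pseudocount of 0.1 RPKM, 30 without the filter, 32 at a filter of 1 RPKM, 106 after quantile normalization, 39 with a constant variance prior, 32 with the replicate block and 11 to 114 with single libraries left out. Leaving out single libraries gave 1271 (without male WT 1) to 2480 calls in males, 1453 (without male ARE-Del 2; 1522 without female ARE-Del 3) to 2498 between the sexes of ARE-Del mice and 535 (without male WT 1; 655 without female WT 1) to 1126 between those of WT mice. Rises made up 35.3% to 84.5% of calls averaged over both sexes, 46.4% to 73.2% between the sexes of ARE-Del mice and 42.2% to 68.9% between those of WT mice over the 3 scalings, and 39.3% in females and 44.5% in males after quantile normalization. Over all tested genes, the replicate numbers gave no sign of pairing the libraries. Over 18 pairs with the same number, deviations correlated at -0.291 to 0.245, with 5 above 0.1. Over 36 pairs with other numbers they correlated at -0.247 to 0.23, with 11 above 0.1, and 2 of 12 libraries correlated best with their own number. Deviations within a group of 3 sum to 0, so these values cannot exclude a pairing. For Dbp, Nr1d1, Nr1d2 and Tef, replicate 1 was the lowest library in female ARE-Del, male ARE-Del and male WT livers and the highest in female WT livers. The block changed no other clock gene call. Read totals are unknown, so no counting error can be given for genes below 0.5 RPKM, Per2 and Per3 among them.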
